A study of Homo sapiens with 18 samples.

Results

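The genes described here are 58 human nucleolar and RNA polymerase I factors, chosen by symbol as ribosome biogenesis genes other than the numbered UTP, RRP, NOP and NOC genes, out of 28395 genes in the RNA-seq tables. All 58 were present in both tables, all 58 passed the filter on low values, and each had at least 1 ATAC-seq region within 5 kb of the gene, 139 regions in all out of 85549. The rule names symbols and uses no measured value, though it was set with earlier results of these data known. The cells were K562, a human leukemia line, in 3 stably transfected forms kept as drug-selected pools and not as single clones. The control line, V-K562, received the vector alone. B-K562 cells made wtBASP1, whereas G-K562 cells made BASP1-G2A, in which the glycine that accepts the N-terminal myristoyl group is mutated. BASP1 is a transcriptional corepressor of WT1 that K562 cells lack. Both assays, RNA-seq and ATAC-seq, used 3 cultures per line, 18 libraries in all, and cells for ATAC-seq received DNase before harvest. The comparisons asked how these genes changed when wtBASP1 was introduced, and whether the myristoylation mutant gave the same change.

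Ribosomes begin in the nucleolus, where RNA polymerase I copies the rDNA repeats into a long precursor rRNA. UBTF and the SL1 complex, made of TBP and the TAF1 proteins, load the polymerase, and RRN3 links SL1 to the enzyme. The precursor is then modified by small nucleolar ribonucleoproteins (snoRNPs), folded, cut and assembled with ribosomal proteins by large sets of helicases, GTPases and scaffold proteins, some serving the small subunit and some the large. This machinery is abundant in fast-growing cells, and MYC is a known activator of its genes.

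BASP1 RNA followed the labels in every library. Its normalised read count was 7, 5 and 7 in V-K562 cells, 6849, 6618 and 6189 in B-K562 cells, and 9323, 12538 and 8124 in G-K562 cells. The 6 erythroid genes used as K562 markers (HBG1, HBG2, HBE1, GATA1, TAL1, KLF1) were all expressed in every line, but their summed value, with B-K562 libraries brought to the scale of the table that holds G-K562 cells, ranged from 102223 to 115494 in V-K562 cells, from 162364 to 168494 in B-K562 cells and from 36947 to 43897 in G-K562 cells. All 6 were called higher in B-K562 cells and all 6 lower in G-K562 cells, each against V-K562 cells. The contrast list of other cell types was dominated by KRT8, a keratin, at 16149 to 17381 in V-K562 cells, 10044 to 10227 in B-K562 cells and 20571 to 21240 in G-K562 cells on the same scale. Without KRT8 the remaining 4 genes summed to 134 to 155 in V-K562 cells, 74.2 to 95.6 in B-K562 cells and 115 to 153 in G-K562 cells, and MS4A1 was at 0 throughout. The part of the erythroid genes and of KRT8 in the member results was not tested. In bulk RNA, fewer cells of a type and less RNA per cell cannot be told apart. Values scaled between libraries show relative levels of RNA, not amounts per cell. The deposited values were already scaled by the authors, with totals of 32342190 to 33229588 per library, so the number of reads sequenced is unknown. Among V-K562 libraries, replicate 3 was the lowest for 41 of the 58 members, and among G-K562 libraries, replicate 2 was the highest for 39.

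Introduction of wtBASP1 was accompanied by higher RNA of nearly the whole set. Of the 58 members, 56 rose in B-K562 cells relative to V-K562 cells and 2 fell, POLR1D and TAF1D, with calls made at adjusted p-values up to 0.05. Of the 14958 genes tested, 38.6% were called higher and 37.2% lower. A rise of at least 2-fold was called for 26 members, against 6.46% of all genes, and a fall of at least 2-fold for 0 members, against 14.1% of all genes. The median log2 fold change of the members was 0.94, with a range from -0.60 to 1.81, while that of all genes was 0.01. For each of the 58 members the values of the 3 B-K562 libraries and the 3 V-K562 libraries did not overlap, and over all genes tested every B-K562 library was higher for 39.7% and lower for 38.1%. The members took 0.659% ± 0.032 (SD, n = 3) of the total value in V-K562 cells, 1.13% ± 0.013 (SD, n = 3) in B-K562 cells and 0.597% ± 0.025 (SD, n = 3) in G-K562 cells. NPM1, DDX21, NCL and FBL are the most abundant members. With these 4 left out, the summed value of the other 54 was 1.94 times that of V-K562 cells in B-K562 cells and 0.924 times in G-K562 cells.

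Of the 5 subunits of RNA polymerase I in the set, 4 rose in B-K562 cells and 1 fell. POLR1A encodes the largest, catalytic subunit and lies at chr2:86025168-86106155 in GRCh38, on the minus strand. Its normalised read counts were 1455, 1746 and 1540 in V-K562 cells and 4658, 4735 and 4763 in B-K562 cells, which gave a log2 fold change of 1.58 ± 0.06 (SE; adjusted p = 8.9e-11). POLR1B, the second catalytic subunit (chr2:112541915-112577153, plus strand), went from 1021, 1195 and 1023 to 2628, 2648 and 2694, a log2 fold change of 1.30 ± 0.06 (adjusted p = 5.8e-10). All B-K562 values of both genes lay far above the highest V-K562 value. POLR1C, which RNA polymerase I shares with RNA polymerase III, rose by 0.87 ± 0.07 on the log2 scale (adjusted p = 5.0e-08). POLR1E, a subunit that works in initiation and elongation, rose less, from 2458, 2458 and 2404 to 3140, 3251 and 3104 (log2 fold change 0.37 ± 0.05, adjusted p = 4.4e-06). POLR1D, the partner of POLR1C in the assembly platform of both polymerases (chr13:27620743-27667422, plus strand), went the other way. Its values were 3077, 3262 and 3348 in V-K562 cells and 2251, 2083 and 2072 in B-K562 cells, so that it fell by 0.60 ± 0.05 on the log2 scale (adjusted p = 1.9e-07). The partners thus changed in opposite directions, and every library showed it. Of 8 further subunits listed beside the members, which include those shared with other polymerases, 6 rose, 0 fell and 2 did not pass the test (ZNRD1, 0.06, and POLR2H, 0.05 on the log2 scale). The largest change in that list was that of CD3EAP, an RNA polymerase I subunit also called POLR1G, from 373, 361 and 292 to 1478, 1501 and 1465 (log2 fold change 2.12, adjusted p = 1.1e-10).

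The initiation factors had the lowest median of the role groups, a difference that was not tested. The median log2 fold change of the 6 was 0.57, with 5 higher, 1 lower and 0 past 2-fold upward. UBTF, the HMG-box factor that occupies active rDNA (chr17:44205033-44221626, minus strand), had 4233, 4402 and 3869 in V-K562 cells and 7416, 7562 and 7494 in B-K562 cells (log2 fold change 0.85 ± 0.05, adjusted p = 4.9e-09). RRN3, the factor that makes the polymerase competent to initiate, rose from 1289, 1405 and 1172 to 2412, 2392 and 2483 (0.92 ± 0.06, adjusted p = 1.6e-08). RRN3 has near-identical copies in the genome, and its value is uncertain. Of these, RRN3P3 was counted at 70, 80 and 67 in V-K562 cells and at 174, 170 and 164 in B-K562 cells, RRN3P2 at 8 or less and RRN3P1 at 1 or less in all these libraries. The RNAs of the 4 TAF1 proteins of SL1 did not move together. TAF1B rose by 0.65 ± 0.07, TAF1C by 0.49 ± 0.05 and TAF1A by 0.47 ± 0.09 on the log2 scale (adjusted p = 2.0e-06, 1.1e-06 and 0.00024). TAF1D fell from 2120, 2301 and 2310 to 1820, 1995 and 1971 (log2 fold change -0.22 ± 0.06, adjusted p = 0.0027). TAF1D was the most abundant of the 4 per kilobase of exon in V-K562 cells, at 1710 normalised reads per kb, whereas TAF1A was the lowest of all 58 members at 79.6. TBP, the remaining SL1 subunit, rose by 0.40 on the log2 scale (adjusted p = 1.9e-05).

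RNA of the abundant proteins of the nucleolus rose for each of them, by unequal amounts. NCL (nucleolin, an RNA-binding histone chaperone) went from 19156, 19265 and 16460 to 36344, 36856 and 36163, a log2 fold change of 0.998 ± 0.06 (adjusted p = 4.7e-09). NOLC1, a scaffold for snoRNPs and the polymerase, rose by 1.15 ± 0.05 and TCOF1 (treacle), which recruits UBTF to the rDNA, by 0.91 ± 0.05. NPM1 (nucleophosmin) was the highest of all members per kilobase, at 15466 in V-K562 cells, and went from 36049, 35841 and 33945 to 46302, 45576 and 43921 (0.36 ± 0.05, adjusted p = 2.0e-05). NPM1 has many processed copies and its value is uncertain. DDX21, a helicase of the nucleolus, rose by 0.48 ± 0.05. Among the snoRNP proteins, the pseudouridine synthase DKC1 and its H/ACA partners NHP2 and GAR1 rose within a narrow range of 0.83 to 0.96 on the log2 scale. NAT10, the enzyme that acetylates cytidine in rRNA, rose by 0.75 ± 0.05. FBL (fibrillarin), the methyltransferase of the other snoRNP class, rose only from 11537, 10127 and 9267 to 12505, 12470 and 12143 (0.27 ± 0.07, adjusted p = 0.0021), and V-K562 replicate 1 came close to the B-K562 libraries.

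The assembly factors of the large subunit had the highest median of the role groups. All 16 large-subunit factors rose, 12 of them by at least 2-fold, with a median of 1.19 on the log2 scale. PPAN, which binds the precursor of the large subunit (chr19:10106223-10111299, plus strand), went from 169, 161 and 144 to 525, 591 and 551 (log2 fold change 1.81 ± 0.09, adjusted p = 7.6e-10), the highest of the 58. PPAN is the upstream gene of a read-through transcript, PPAN-P2RY11, counted at 0 in all V-K562 and B-K562 libraries, so the split of reads between them is uncertain. MRTO4, the placeholder for the stalk protein on the early large subunit, rose from 2592, 2580 and 2098 to 7630, 7663 and 7299 (1.64 ± 0.07, adjusted p = 2.1e-10). NIP7, an rRNA-binding factor, rose by 1.56 ± 0.07 and BOP1 by 1.41 ± 0.05. BOP1 acts with PES1 and WDR12 in processing of the rRNA spacers, and PES1 (1.18 ± 0.06) and WDR12 (0.80 ± 0.06) rose as well. The nucleolar GTPases GNL2, GNL3, GNL3L and GTPBP4 rose by 0.71 to 1.13. EBNA1BP2, an early scaffold of the large subunit, rose by 1.38 ± 0.08, the helicases DDX18 and DDX51 by 1.23 and 1.24, and WDR74 by 1.21. DDX54, at 0.58 ± 0.04, was the lowest of the group. DDX56 lay just past the 2-fold limit and NCL, at 0.998 on the log2 scale, just under it.

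All 14 factors of the small-subunit processome, the large particle that folds and first cuts the precursor, rose as well, with 7 past 2-fold and a median of 0.98. The helicase DDX10 went from 866, 956 and 875 to 2818, 2684 and 2604 (log2 fold change 1.59 ± 0.06, adjusted p = 4.4e-11). HEATR1, a very large scaffold that also supports rDNA transcription, rose from 2923, 3576 and 3312 to 7847, 8233 and 8262 (1.32 ± 0.06, adjusted p = 6.4e-10). The partners MPHOSPH10, IMP3 and IMP4, which bind each other in the processome, rose by 1.15, 1.07 and 1.09, nearly the same amount. The WD-repeat proteins spread more widely, with WDR43 at 1.30, WDR3 at 1.13, WDR36 at 0.65 and WDR75 at 0.57. The helicases DDX49, DDX47 and DDX52 rose by 0.90, 0.86 and 0.60 and DCAF13 by 0.75. KRR1, an RNA-binding protein of the same particle, rose least, by 0.42 ± 0.06. Of the 7 factors that act late on the small subunit, PNO1 rose by 1.64 ± 0.05 (826, 886 and 873 to 2669, 2743 and 2657) and LTV1 by 1.46 ± 0.07. The small-subunit scaffolds TSR1 and BYSL rose by 1.18 and 1.15, and the atypical kinases RIOK1 and RIOK2 by 0.80 and 0.60. NOB1 is the endonuclease that makes the final cut of the small-subunit rRNA, and PNO1 sits over its target site. NOB1 went from 3469, 3671 and 3767 to 3958, 3978 and 3866, a log2 fold change of 0.11 ± 0.05 (adjusted p = 0.040). The call for NOB1 was lost when V-K562 replicate 1, V-K562 replicate 2 or any B-K562 replicate was left out, and under quantile normalisation its log2 fold change was -0.03. Taking the members by protein family instead, RNA rose for all 9 DDX helicases and all 6 WD-repeat WDR proteins, for 4 and 3 of them by at least 2-fold. Over the 58 members, the log2 fold change had a Spearman's rho of -0.27 with the V-K562 level per kilobase and of 0.0012 with exon length, across genes that share libraries.

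**Figure D1:**
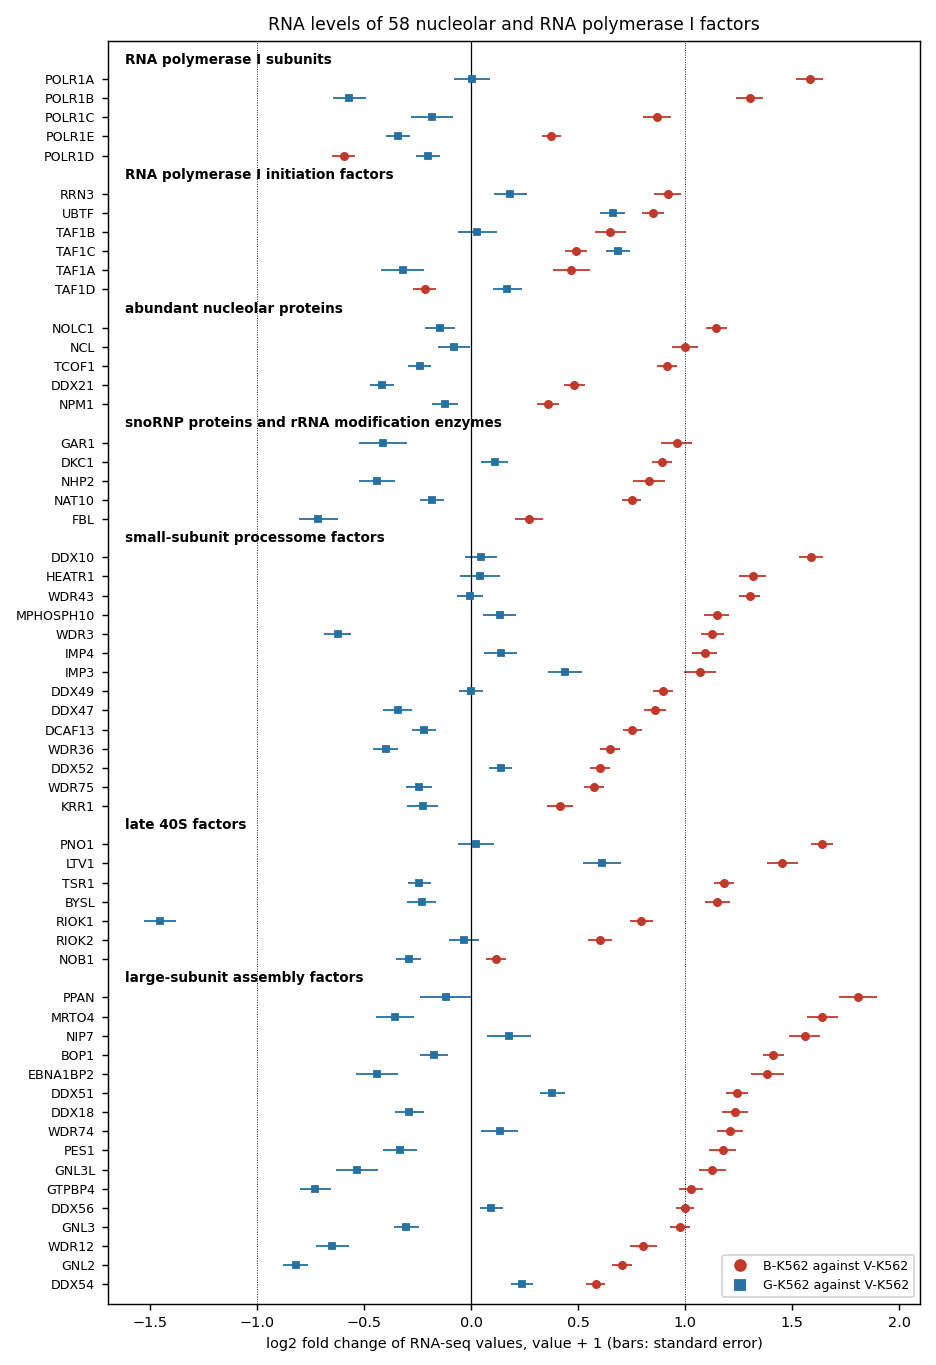
Log2 fold change of the RNA-seq value (plus 1) against V-K562 cells on the horizontal axis for each of the 58 members, in B-K562 cells (circles) and G-K562 cells (squares), grouped by role; bars are standard errors and dotted lines mark 2-fold. Circles lie right of 0 for 56 members, while 21 squares lie right of 0 and 37 left of it.

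Because MYC and its partner MAX bind the E-box CACGTG, the RefSeq promoter windows (GRCh38.p14, 250 bases before to 50 bases after the start, the same length for every gene) were searched on both strands for that sequence and for 3 others. A window was held for 49 of the 58 members. POLR1E, TCOF1, NOLC1, BOP1, DDX18, DDX49, DDX52, MPHOSPH10 and DCAF13 were not analysed here. CACGTG was found in 12 of the 49 windows, 24.5%, against 7.43% of all 27305 windows and 9.82% of those of the genes tested. The ETS sequence CCGGAAG was found in 22 members (44.9%, against 10.7% and 18.4%), the GC box GGGCGG in 31 (63.3%, against 44.6% and 67.5%), and the sequence GCGTGGG, bound by EGR1 and WT1, in 7 (14.3%, against 6.74% and 9.51%). No matches of different sequences overlapped. A match describes the letters in the window and not a bound factor. The 13 E-box matches, 4 before the start and 9 after it, are shown with 12 bases on each side because MYC and MAX RNA is given beside the members. Each reads 5′ to 3′ on the strand of the gene, with the E-box in capitals.
FBL (chr19:39846356-39846385, minus strand): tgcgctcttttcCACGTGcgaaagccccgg
PES1 (chr22:30591880-30591909, minus strand): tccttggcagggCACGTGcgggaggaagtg
EBNA1BP2 (chr1:43172790-43172819, minus strand): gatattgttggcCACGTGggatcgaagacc
BYSL (chr6:41921515-41921544, plus strand): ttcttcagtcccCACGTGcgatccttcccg
GNL2 (chr1:37595917-37595946, minus strand): gtacgtcgtgcaCACGTGgtccggcgtggt
DDX54 (chr12:113185522-113185551, minus strand): ctcagcggaggtCACGTGgtcaccgcacct
WDR43 (chr2:28894658-28894687, plus strand): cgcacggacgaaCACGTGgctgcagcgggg
NAT10 (chr11:34105602-34105631, plus strand): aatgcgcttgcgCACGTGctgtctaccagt
MRTO4 (chr1:19251807-19251836, plus strand): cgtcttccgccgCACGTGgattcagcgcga
PNO1 (chr2:68157885-68157914, plus strand): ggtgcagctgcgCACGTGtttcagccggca
LTV1 (chr6:143843354-143843383, plus strand): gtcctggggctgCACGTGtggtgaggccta
IMP4 (chr2:130342682-130342711, plus strand): gcggtcctaagtCACGTGtgacattctgta
IMP4, second match (chr2:130342900-130342929, plus strand): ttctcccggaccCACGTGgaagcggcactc

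For the 12 members with an E-box the median in B-K562 cells was 1.16 on the log2 scale, against 0.89 for the 37 without one, and they ranged from FBL at 0.27 to MRTO4 and PNO1 at 1.64. In G-K562 cells the medians were -0.21 and -0.18. Members with and without GCGTGGG had medians of 0.85 and 0.99 in B-K562 cells and 0.18 and -0.19 in G-K562 cells. The values with GCGTGGG rest on 7 members. For CCGGAAG the medians were 0.89 and 0.998 in B-K562 cells and -0.28 and -0.12 in G-K562 cells. For GGGCGG they were 0.998 and 0.83, then -0.23 and -0.08, in the same order. None of these differences between medians was tested. MYC RNA was 5365, 6137 and 6103 in V-K562 cells and 6126, 5874 and 6264 in B-K562 cells (log2 fold change 0.06, adjusted p = 0.38), and these groups overlapped. Within the table that holds G-K562 cells, MYC was 5447, 6231 and 6227 in V-K562 cells and 2145, 2161 and 2078 in G-K562 cells, so that it fell by 1.48 on the log2 scale (adjusted p = 5.7e-09). MAX rose in B-K562 cells (0.66, adjusted p = 4.6e-07) and fell in G-K562 cells (-0.22, adjusted p = 0.0090). No relation of MYC or MAX levels to the members was tested.

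In G-K562 cells, which made BASP1-G2A, members moved in both directions. Against the same V-K562 libraries, 8 of the 58 members rose, 30 fell and 20 did not pass the test. Over the 15271 genes tested, 33.5% were called higher and 33.3% lower. At 2-fold or more, 0 members rose (8.81% of all genes) and 1 fell, RIOK1 (10.3% of all genes). The member median was -0.18 on the log2 scale, with a range from -1.45 to 0.69, and that of all genes was 0.00. The values of the groups did not overlap for 38 members, 9 with all G-K562 libraries higher (35.2% of all genes tested) and 29 with all lower (34.9%). This comparison shares its V-K562 libraries with that of B-K562 cells.

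Of the polymerase subunits, 0 of 5 were called higher in G-K562 cells and 3 were called lower. POLR1A stood at 1477, 1773 and 1571 in V-K562 cells (values of the second table) and at 1717, 1458 and 1657 in G-K562 cells, a log2 fold change of 0.00 ± 0.08 (adjusted p = 0.97), and the libraries of both lines interleaved. POLR1B fell from 1037, 1213 and 1044 to 719, 732 and 760 (log2 fold change -0.57 ± 0.08, adjusted p = 4.9e-05), with every G-K562 library below every V-K562 library. POLR1E fell by 0.34 ± 0.06 (adjusted p = 0.00023), and POLR1D fell from 3124, 3312 and 3416 to 2826, 2925 and 2799 (-0.20 ± 0.06, adjusted p = 0.0078). POLR1C, at -0.18 ± 0.10, did not pass (adjusted p = 0.12), but did when V-K562 replicate 3 (-0.27) or G-K562 replicate 2 (-0.29) was left out. Of the 8 further subunits, 0 rose, 3 fell (ZNRD1, POLR2E and POLR2H) and 5 did not pass.

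The initiation factors were the group with the highest median in G-K562 cells, 0.18 on the log2 scale, with 3 of 6 higher. TAF1C rose most of all members, from 2529, 2420 and 2286 to 3833, 3847 and 3952 (log2 fold change 0.69 ± 0.06, adjusted p = 1.0e-06). UBTF was close to it, at 4298, 4469 and 3948 in V-K562 cells and 6758, 6632 and 6692 in G-K562 cells (0.66 ± 0.06, adjusted p = 1.6e-06). In both genes the groups were well apart. TAF1D was called at 0.17 ± 0.07 (adjusted p = 0.049), and this call was lost when any V-K562 replicate, G-K562 replicate 1 or G-K562 replicate 2 was left out. RRN3 (0.18 ± 0.08, adjusted p = 0.056) did not pass, and passed when V-K562 replicate 2 (0.24) or G-K562 replicate 3 (0.23) was left out. TAF1A fell by 0.32 ± 0.10 (adjusted p = 0.014), a call lost without V-K562 replicate 3, and TAF1B was at 0.03 ± 0.09 (adjusted p = 0.79).

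Falls in G-K562 cells were called for 10 of 16 large-subunit factors, 4 of 5 snoRNP and modification proteins and 4 of 7 late small-subunit factors. RIOK1, an atypical kinase that acts late on the small subunit (chr6:7389419-7418037, plus strand), had the largest fall, from 1923, 2091 and 1842 to 685, 769 and 682 (log2 fold change -1.45 ± 0.07, adjusted p = 2.2e-08), while its relative RIOK2 did not pass the test (-0.03 ± 0.07, adjusted p = 0.68). The 4 nucleolar GTPases all fell, GNL2 by 0.82 ± 0.06, GTPBP4 by 0.73 ± 0.07, GNL3L by 0.53 ± 0.10 and GNL3 by 0.30 ± 0.06. PES1, BOP1 and WDR12 fell too, with WDR12 at -0.65 ± 0.08 and BOP1 at -0.17 ± 0.07 (adjusted p = 0.035), although the libraries overlapped for BOP1 and its call was lost without V-K562 replicate 1 or 2 or G-K562 replicate 2 or 3 (-0.16 to -0.14). FBL fell from 11714, 10282 and 9455 to 6160, 7204 and 5788 (-0.72 ± 0.09, adjusted p = 3.2e-05), and WDR3 of the processome by 0.63 ± 0.06. DKC1 did not pass (0.11 ± 0.06, adjusted p = 0.14), although its partners NHP2 and GAR1 fell by 0.44 and 0.41. NCL (-0.08 ± 0.07), NPM1 (-0.12 ± 0.06) and NOLC1 (-0.14 ± 0.07) did not pass. NOLC1 passed without V-K562 replicate 3 (-0.19) or G-K562 replicate 2 (-0.20), and NPM1 without G-K562 replicate 2 (-0.17). TCOF1 and DDX21 fell by 0.24 and 0.42. NAT10 fell by 0.18, EBNA1BP2 by 0.44, MRTO4 by 0.36, PES1 by 0.33 and DDX18 by 0.29, as did NOB1, TSR1 and BYSL, by 0.29, 0.24 and 0.23. The call for NAT10 was lost without V-K562 replicate 2 or G-K562 replicate 3 (-0.16 each) and that for BYSL without V-K562 replicate 2 (-0.19). The processome had 2 members higher, 6 lower and 6 not called, the lower ones being WDR3, WDR36 (-0.40), DDX47 (-0.34), WDR75 (-0.25), KRR1 (-0.23) and DCAF13 (-0.22). KRR1 did not pass without V-K562 replicate 1 (-0.17) or G-K562 replicate 1 (-0.21). Those not called were DDX10 (0.05), HEATR1 (0.04), WDR43 (-0.01), DDX49 (0.00), IMP4 (0.14) and MPHOSPH10 (0.13).

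The assembly factors that rose in G-K562 cells were LTV1, IMP3, DDX51, DDX54 and DDX52. LTV1, an adaptor on the maturing small subunit, went from 2132, 2165 and 1733 to 2988, 3310 and 2889 (log2 fold change 0.61 ± 0.09, adjusted p = 8.0e-05), and IMP3 rose by 0.44 ± 0.08. DDX51 and DDX54, helicases of the large subunit, rose by 0.38 ± 0.06 and 0.24 ± 0.05. DDX52 was at 0.14 ± 0.06 (adjusted p = 0.045), and this call was lost when any of the 6 libraries was left out (0.12 to 0.15). NIP7 (0.18 ± 0.10, adjusted p = 0.15), WDR74 (0.13), DDX56 (0.09) and PNO1 (0.02) did not pass. PPAN, the highest in B-K562 cells, was at 172, 164 and 147 in V-K562 cells and 160, 135 and 150 in G-K562 cells, which overlap (-0.12 ± 0.12, adjusted p = 0.40).

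**Figure D2:**
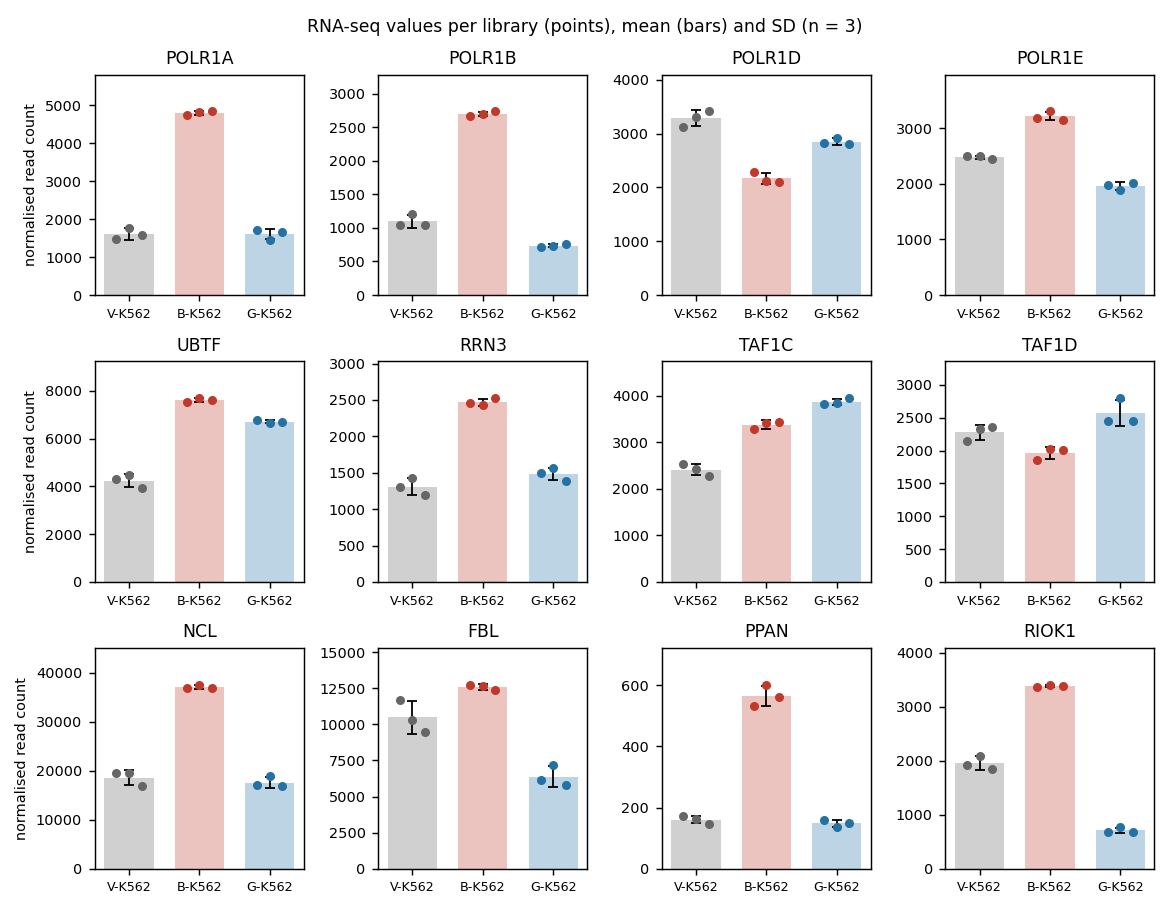
Normalised read counts of 12 members on the vertical axis, each axis starting at 0, in the 3 libraries of each line (points), with the mean (bar) and the SD (error bar, n = 3); B-K562 values were multiplied by 1.017 to join the tables. B-K562 libraries stand above V-K562 libraries for all but POLR1D and TAF1D, and G-K562 libraries stand with or below V-K562 libraries for all but UBTF, TAF1C and TAF1D, with those of RRN3 overlapping.

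G-K562 and B-K562 cells were compared directly in a fit of all 9 libraries. B-K562 values were first multiplied by 1.017, the mean ratio of the V-K562 columns between tables. BASP1 RNA was itself higher in G-K562 cells (log2 fold change 0.56 ± 0.14, adjusted p = 0.0019). The form of BASP1, its amount and the pool of cells cannot be told apart here. Between G-K562 and B-K562 cells, 55 of the 58 members were lower in G-K562 cells and 3 were higher, against 40.5% and 38.1% of the 15521 genes tested. By at least 2-fold, 32 members were lower (12.5% of all genes) and 0 higher (17.4% of all genes), and the member median was -1.07 on the log2 scale against -0.02 for all genes. No member had overlapping libraries, where all G-K562 libraries were higher for 39.1% of all genes tested and lower for 41.9%. The largest differences were those of RIOK1 (log2 fold change -2.25 ± 0.06, adjusted p = 5.8e-13, a level 4.76 times lower), MRTO4 (-2.00 ± 0.08), PPAN (-1.92 ± 0.10), POLR1B (-1.87 ± 0.06), EBNA1BP2 (-1.82 ± 0.09), GTPBP4 (-1.76 ± 0.06), WDR3 (-1.75 ± 0.05) and GNL3L (-1.66 ± 0.08). By role, the median was -1.52 for the 16 large-subunit factors, -1.38 for the 7 late small-subunit factors, -0.99 for the 14 processome factors and -0.40 for the 6 initiation factors. The 3 members that were higher in G-K562 cells were POLR1D (0.39 ± 0.05, adjusted p = 7.2e-06), TAF1D (0.39 ± 0.06, adjusted p = 6.0e-05) and TAF1C (0.20 ± 0.05, adjusted p = 0.0020). UBTF differed least of the others, at -0.19 ± 0.05 (adjusted p = 0.0030), a difference that did not pass after quantile normalisation (-0.10). DDX54 (-0.34 ± 0.04), NOB1 (-0.41 ± 0.05), DDX52 (-0.47 ± 0.05) and NPM1 (-0.48 ± 0.05) followed. Of the remaining polymerase subunits, POLR1A was at -1.58 ± 0.07, POLR1C at -1.05 ± 0.09 and POLR1E at -0.72 ± 0.05. Of the remaining initiation factors, TAF1A was at -0.79 ± 0.09, RRN3 at -0.74 ± 0.07 and TAF1B at -0.62 ± 0.08.

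Other parts of the same pathway, and RNA polymerases II and III as a contrast, were listed beside the members and counted in each comparison. In B-K562 cells, RNA was higher for 9 of 9 RNase MRP genes (median log2 fold change 0.88). It was higher for 11 of 14 exosome subunits and cofactors (0.57) and 11 of 12 snoRNP assembly factors (0.66). Export and late large-subunit factors had 12 of 15 higher (0.56). RNA polymerase III had 8 of 9 subunits higher (0.77) and the RNA polymerase II core 7 of 7 (0.38). In the same order, 0, 1, 1, 2, 0 and 0 were called lower. Over all genes tested, 38.6% were called higher and 37.2% lower. In G-K562 cells the numbers higher and lower were 3 and 1 for RNase MRP and 1 and 5 for the exosome. They were 1 and 6 for snoRNP assembly and 1 and 9 for export and late factors. RNA polymerase III and the RNA polymerase II core each had 1 and 2. The medians of these lists lay between -0.17 and 0.09. Over all genes tested in G-K562 cells, 33.5% were called higher and 33.3% lower. Among TBP and 13 regulators of rDNA transcription, of which CDKN2A did not pass the filter, 8 rose and 2 fell in B-K562 cells, with MTOR, the growth kinase, at 0.86 (adjusted p = 5.4e-09). BAZ2A, a subunit of the complex that silences rDNA, fell by 0.42 in B-K562 cells (adjusted p = 1.6e-05) and was at 0.09 in G-K562 cells (adjusted p = 0.30). All these lists were chosen with earlier results of these data known.

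Chromatin at the start sites of the members was open in all lines. ATAC-seq counts the tags that a transposase leaves in accessible DNA, and the value used is the highest number of tags at a peak summit in a region. A region covered the annotated start of 54 of the 58 members, and 53 of these had a peak in all 9 libraries. UBTF, PES1, BYSL and DDX56 had no region over the start in the annotation used, though regions lay 90 bp from it for UBTF, 25 bp for PES1 and 210 bp for DDX56. The RefSeq windows of PES1 and BYSL, and so their E-boxes, lie inside the annotated genes and not at these starts, and a region with a peak in all 9 libraries covered each of those windows' E-boxes (chr22:30591790-30592449 and chr6:41920755-41921609). The start region of TSR1 had a peak in 2 G-K562 libraries alone and was not tested. Its RefSeq window too lies inside the annotated gene, and the region over it (chr17:2336279-2336847) had a peak in all 9 libraries, with a log2 fold change of 0.41 ± 0.20 in B-K562 cells (adjusted p = 0.17) and of 0.65 ± 0.13 in G-K562 cells (adjusted p = 0.0061). The start region also covered the start of another gene for 25 members (for example PTCD3 with POLR1A and HSF1 with BOP1), and accessibility there cannot be given to 1 of the genes.

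In B-K562 cells, 16 of the 53 start-site regions were more accessible than in V-K562 cells and 0 less, with a median log2 fold change of 0.30. Of all regions at gene starts, 20.3% were called higher and 2.13% lower, and their median was 0.24. Counting all 106 tested regions within 5 kb of a member, 23 were higher and 6 lower, against 8.69% and 16.5% of all 52204 regions tested. DDX10 had the largest change at a start (chr11:108664699-108665269), from 73.9, 66.9 and 102 scaled tags in V-K562 cells to 158, 166 and 133 in B-K562 cells (log2 fold change 0.94 ± 0.17, adjusted p = 0.0074). The start of TAF1C (chr16:84186817-84187311) went from 78.6, 71.4 and 55.6 to 129, 119 and 106 (0.80 ± 0.16, adjusted p = 0.0090), and that of NPM1 rose by 0.67 ± 0.12. The start of POLR1D (chr13:27620296-27621014), which is also that of LNX2, rose from 88.9, 99.3 and 87.3 to 121, 149 and 146 (0.60 ± 0.12, adjusted p = 0.0099), although POLR1D RNA fell. Among members with some of the largest RNA increases, the starts of PNO1, DDX10, NIP7 and BOP1 passed the test and others did not. POLR1B was at -0.00 ± 0.13 (adjusted p = 1.0), with 104, 94.8 and 110 tags against 91.5, 95.7 and 119, PPAN was at 0.22 ± 0.13 and MRTO4 at 0.31 ± 0.12. Of the 16 called starts, 15 belonged to members with higher RNA, where 56 of 58 members had it. Across the 53 members, the RNA and start-site log2 fold changes had a Pearson's r of 0.019 and a Spearman's rho of -0.015, over genes that share the same libraries.

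In G-K562 cells, 27 of the 53 start-site regions were more accessible than in V-K562 cells and 0 less (median 0.36), where 41.9% of all regions at gene starts were called higher and 3.91% lower (median 0.33). Of the 104 tested regions within 5 kb, 39 were higher and 12 lower, against 16.2% and 25.8% of 54213 regions. The start of IMP4, shared with CCDC115 (chr2:130341987-130343248), had 211, 209 and 230 scaled tags in V-K562 cells and 383, 321 and 391 in G-K562 cells (log2 fold change 0.78 ± 0.09, adjusted p = 0.00071). POLR1A, shared with PTCD3, rose from 97.0, 116 and 112 to 165, 159 and 140 (0.54, adjusted p = 0.0069), and PPAN, shared with ANGPTL6, by 0.66 (adjusted p = 0.0045), while the RNA of POLR1A and PPAN did not pass the test in this line. RIOK1, whose RNA fell most, was at 0.17 at its start (adjusted p = 0.15). Of the 27 called starts, 1 belonged to a member with higher RNA, 9 to members with lower RNA and 17 to members whose RNA was not called. Over all 58 members, RNA was higher for 8, lower for 30 and not called for 20. The correlation of RNA with start-site changes across the 53 members was 0.33 (Pearson's r) and 0.362 (Spearman's rho), again over genes that share libraries.

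**Figure D3:**
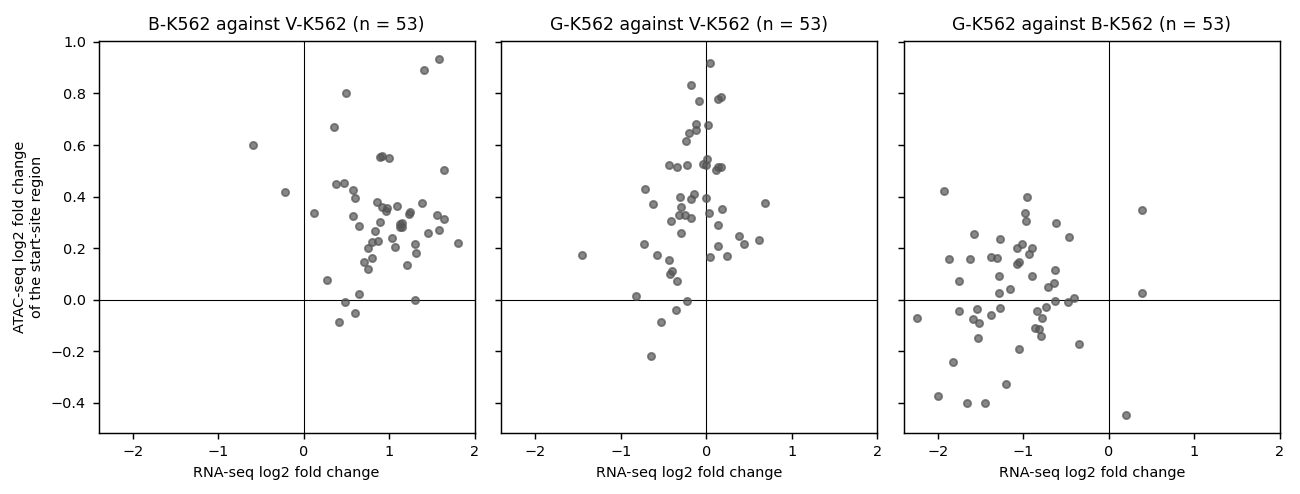
RNA-seq log2 fold change (horizontal) and ATAC-seq log2 fold change of the start-site region (vertical) for the 53 members with a tested start-site region, 1 point per member, in the 3 comparisons. Points lie above 0 for 49 members against V-K562 cells in both lines, with RNA mostly right of 0 in B-K562 cells and on both sides of 0 in G-K562 cells.

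Between G-K562 and B-K562 cells, 4 of the 53 start-site regions were higher in G-K562 cells (TAF1B, PPAN, IMP4 and DCAF13) and 2 lower (TAF1C and MRTO4), against 13.1% and 7.24% of the regions at all gene starts. The medians were 0.03 and 0.08. Within 5 kb, 10 regions were higher and 12 lower of 110 tested, against 12.4% and 15.5% of 60181 regions. The 4 members whose start was higher had less RNA in G-K562 cells than in B-K562 cells, as did 55 of all 58 members. The 10 regions called higher became 6, 6 and 5 without B-K562 replicate 1, 2 or 3 and 6 and 5 without G-K562 replicate 2 or 3, and the 12 called lower became 7 without G-K562 replicate 1 or 2.

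The size of the start-site changes depended on how the libraries were scaled. ATAC-seq log2 fold changes increased with the GC content of the regions, with a Spearman's rho over all regions tested of 0.413 (B-K562) and 0.476 (G-K562), and start-site regions of members had a median GC content of 61.5%, between the 52.5% of all regions tested in B-K562 cells and the 65.3% of regions at all gene starts. When regions were scaled within 20 bins of GC content, the member medians were 0.15 (B-K562) and 0.24 (G-K562), with 0.07 and 0.09 at all gene starts, and the median between G-K562 and B-K562 cells turned to -0.04. Without scaling beyond the authors' equal number of tags, the member medians were 0.45, 0.70 and 0.24, with 0.39, 0.67 and 0.29 at all gene starts. The counts of member regions called higher in B-K562 cells fell from 23 to 11, 10 and 13 when B-K562 replicate 1, 2 or 3 was left out, and that in G-K562 cells from 39 to 25 without G-K562 replicate 3.

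**Figure D4:**
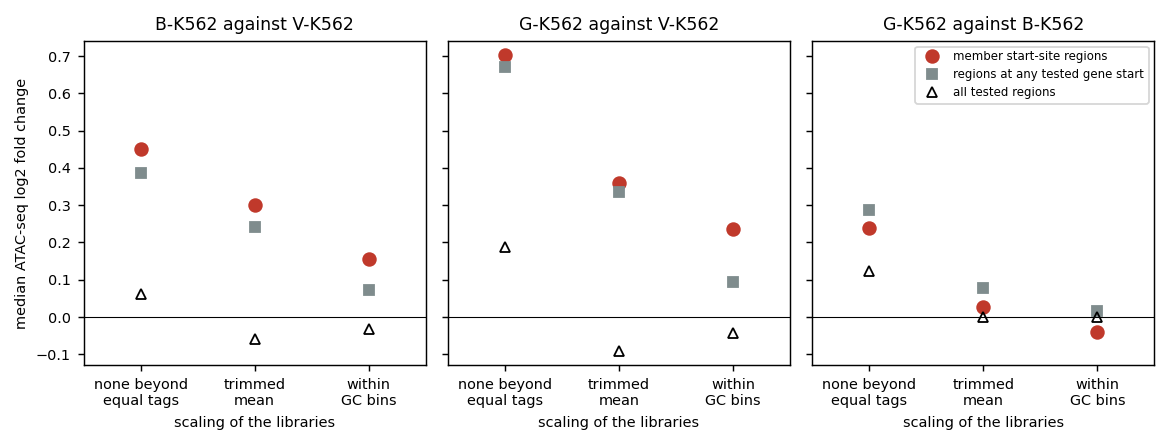
Median ATAC-seq log2 fold change (vertical) under 3 scalings of the libraries (horizontal), for the member start-site regions (circles), all regions at the start of a tested gene (squares) and all tested regions (triangles), in each comparison. Circles stay above 0 against V-K562 cells under all 3 scalings, and lie at -0.04 between G-K562 and B-K562 cells when scaled within GC bins.

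Away from the start sites a few regions changed by at least 2-fold. In B-K562 cells 1 of the 106 member regions was called higher (1.53% of all regions) and 3 lower (6.12%), in G-K562 cells 0 of 104 were higher (2.92%) and 6 lower (13.0%), and between the lines 1 of 110 was higher in G-K562 cells (4.32%) and 5 lower (8.56%). A region 2448 bp upstream of IMP4 (chr2:130340155-130340449) had 94.7, 92.6 and 108 scaled tags in V-K562 cells and no called peak in any B-K562 or G-K562 library. With missing peaks set to a floor of 17 tags, its log2 fold change was -2.36 in B-K562 and -2.45 in G-K562 cells. A region 337 bp past the end of UBTF (chr17:44204366-44204696) had 46.2, 60.2 and 62.4 tags in V-K562 cells and no peak in the other lines (-1.55 for B-K562 and -1.65 for G-K562). A region 4142 bp upstream of GAR1 (chr4:109810976-109811368) had 54.7, 73.3 and 59.2 tags in B-K562 cells and no peak elsewhere (1.72 against V-K562 cells). The region 43 bp past the end of GNL3 (chr3:52694540-52694891) had peaks in all V-K562 and G-K562 libraries and in no B-K562 library (-1.20 in B-K562 cells). G-K562 libraries were called lower there too, against V-K562 cells (-0.88 ± 0.26, adjusted p = 0.028), and their difference from B-K562 cells did not pass (0.40 ± 0.23, adjusted p = 0.23). Against V-K562 cells, the regions near GNL2, WDR43 and HEATR1 and within GTPBP4 were lower in G-K562 cells, by 2.18, 1.68, 1.51 and 1.05 on the log2 scale. Those of GNL2, GTPBP4 and HEATR1 were also lower when G-K562 cells were set against B-K562 cells, as were the regions near FBL and GAR1, and the 1 that was higher there lay 968 bp upstream of BOP1. The floor makes the size of these changes depend on the lowest values that a peak call allows. A line without peaks had the floor in all its libraries, so it had no spread. The regions near IMP4, UBTF and GAR1 had peaks in 1 line alone and passed the filter only through it. So did that of GNL3 when B-K562 cells were set against V-K562 cells. P-values are left out for these, and their calls in the counts above rest on the floor.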

How the data were processed

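RNA-seq and ATAC-seq libraries of the 3 lines (3 of each kind per line) were grouped by their labels. Subread, MACS2 and GRCh38 are named, without versions, in the submitters' processing notes. The RNA-seq values deposited by the authors are a normalised score, gene counts scaled with size factors of DESeq2 and then rounded, in 1 table per comparison with V-K562 cells. The ATAC-seq values deposited by the authors are the pileup signal at MACS2 peak summits, called in each library after the authors had reduced the libraries to an equal number of tags. Columns of fold changes and p-values made by the authors were not used.

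Genes reaching 10 in 3 or more libraries were tested with limma 3.58.1 under R 4.3.3 (its trended prior variance) on log2(value + 1), so that changes of low genes are understated, and p-values were adjusted by the Benjamini-Hochberg method over all genes tested. G-K562 and B-K562 cells were compared in 1 fit of 9 libraries, with B-K562 values multiplied by 1.017. Peak intervals of all libraries were merged, the highest summit pileup was taken per library, libraries were scaled by a trimmed mean (30% of ratios and 5% of levels trimmed), values absent or below 17 were set to 17, and regions with a peak in at least 3 libraries were tested likewise. For log2 fold changes against V-K562 cells the scaling used the compared lines alone. The scaled tags printed here were scaled over all 9 libraries, so they can differ slightly from the fold changes beside them. Calls were made at adjusted p-values up to 0.05, and SE is the standard error of the log2 fold change. P-values measure the spread between cultures of 1 pool per line. For a region without peaks in a line, they measure only that of the lines with peaks. Only the limma fit was tested on simulated counts, which had a set spread. Peak merging, scaling, the floor, the joining of the tables and the sequence search were not tested in this way. Python 3.11.15 with pandas 2.3.3, scipy 1.17.1 and pysam 0.24.0 was used for regions and sequences.

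Named in each RNA-seq comparison are the 8 members with the highest and the 8 with the lowest log2 fold change, all polymerase subunits and initiation factors, and examples of each role. Members named beyond these were chosen after their values were seen. The members and gene lists were chosen with earlier results of these data known, and 2 listed genes that are no members are not reported here. Same-numbered libraries deviated from their group means with correlations of -0.0802 to 0.136 in RNA-seq and -0.00521 to 0.0705 in ATAC-seq. Libraries with different numbers gave -0.16 to 0.208 in RNA-seq and -0.055 to 0.0256 in ATAC-seq. Same-numbered libraries thus did not stand out in RNA-seq, while in ATAC-seq their correlations tended to be higher, though small. The main tests did not pair the samples. Alternatives were other filters, pseudocounts, normalisations, scalings, windows and floors, a 2-fold rule, a replicate block, and leaving out each library.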

Additional observations from a re-analysis of the deposited data

How the results depend on the processing

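When single libraries were left out, the RNA-seq counts of members called higher and lower stayed at 55 to 56 and 2 in B-K562 against V-K562 cells, 6 to 8 and 27 to 32 in G-K562 against V-K562 cells, and 3 and 55 in G-K562 against B-K562 cells, with medians of 0.88 to 0.97, -0.21 to -0.16 and -1.14 to -1.04. Quantile normalisation gave medians of 0.81 in the first comparison and -0.98 in the last, and turned the log2 fold change of NOB1 to -0.032. With a 2-fold rule, 26 and 0, 0 and 1, and 0 and 32 members were called higher and lower. Over the 58 members, 2214 values kept direction and call, 37 calls were lost, 10 were gained and 1 value reversed, over all alternatives and comparisons.

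ATAC-seq results moved more. Without scaling, 48, 67 and 32 member regions were called higher in the same 3 comparisons, with start-site medians of 0.45, 0.70 and 0.24. All gene starts moved as well, with medians of 0.39, 0.67 and 0.29. Within GC bins 15 and 20 were called higher against V-K562 cells, with medians of 0.15 and 0.24 (0.07 and 0.09 at all gene starts). The median of G-K562 against B-K562 cells reversed to -0.040. Shares over all regions were counted for the main setting and the 2-fold rule alone. With a peak required in every library, 2, 3 and 4 regions were called lower, and within 1 kb 7 were lower in each comparison that involved G-K562 cells. With a 2-fold rule the counts higher and lower were 1 and 3, 0 and 6, and 1 and 5. Leaving out each library gave 10 to 21 higher and 5 to 7 lower with medians of 0.29 to 0.32, 25 to 35 and 9 to 12 with 0.31 to 0.43, and 5 to 11 and 7 to 11 with 0.018 to 0.066. The causes were not tested.

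The main tests did not pair samples by the replicate numbers that the groups share. With the replicate number as a block, the RNA-seq counts were 56 and 2, 8 and 30, and 3 and 55, with medians of 0.94, -0.18 and -1.07, and the ATAC-seq counts were 22 and 6, 40 and 12, and 9 and 11. RRN3 in G-K562 against V-K562 cells passed the test with the block (adjusted p = 0.035), and DDX52 did not (adjusted p = 0.084).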
